A study of Mus musculus with 6 samples.

Results

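Apoptosis is carried out by a small set of proteins. The expression of 34 genes that encode them was examined in cells of Hox5 mutant and wild-type mouse embryos, sorted as cervical motor neurons. The genes were taken from a list of Bcl2 family members, caspases, their inhibitors, mitochondrial factors, death receptors and members of the p53 pathway. A probe belonged to the set where the platform annotation gave it the symbol of a listed gene, whether it was detected or not. This gave 88 of the 45281 probes of the array (0.194%), and 31 of the 34 genes had at least 1 probe. Bax, Trp53 and Endog matched no probe and are not analysed here. A probe was detected on an array where its detection p was under 0.05, and 51 of the 88 member probes (58.0%) were detected on at least 3 of the 6 arrays, against 19735 of all 45281 probes (43.6%). The brightest such probe stood for each gene, so that 23 of the 31 genes with a probe (74.2%) entered the test, against 10438 of 19057 named genes (54.8%). Of the 23, 5 are pro-survival, 16 are pro-death, and Cdkn1a and Mdm2 belong to the p53 pathway.

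There were 3 samples labelled Hox5 mutant, with the genotype Hoxa5fl/fl::olig2CREHoxc5-/- in the series title, and 3 labelled wild type. In the mutants a floxed Hoxa5 gene is deleted by Cre under the control of Olig2, a gene of motor neuron progenitors, and Hoxc5 carries a null allele in every cell. All 6 samples came from embryos at stage e12.5 of a mixed C57BL/6, BALB/c and FVB background, all carried the HB9::GFP reporter, and cells were sorted on that reporter after papain and DNase treatment. Whether a sample held 1 embryo or a pool is not in the labels, so each p-value measures the spread between these samples, which may be technical. Each sample was hybridised to 1 Illumina bead array, which measures the brightness of a probe, and all values below are background-corrected, quantile-normalized log2 intensities unless stated otherwise.

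Cells that die by apoptosis usually do so through their mitochondria. Pro-survival Bcl2 proteins hold back the effectors that open pores in the outer mitochondrial membrane, and the BH3-only proteins release this brake when a cell is stressed or loses trophic support. Cytochrome c then escapes, joins Apaf1 in the apoptosome and activates Casp9, while death receptors reach the same executioner caspases from the cell surface. Spinal motor neurons are produced in excess and many die in this way during development, when they compete for trophic factors. Hox5 genes are known from mouse genetics to be needed for the phrenic motor neurons, which innervate the diaphragm and become fewer when Hox5 is lost. The comparison therefore asks whether the death machinery differs in cells sorted as cervical motor neurons where Hoxa5 and Hoxc5, but not Hoxb5, were targeted.

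Promoters are shown for 4 members: Bak1, which had the smallest p, Cdkn1a and Mdm2, the tested members of the p53 pathway, and Bid, the tested member with a match to the Hox and Pbx motif. They are from RefSeq, mouse assembly GRCm38.p6, and run from 250 bases before to 50 bases after an annotated transcription start, 300 bases in all. The member genes had 44 such windows from 31 genes, since some have several starts. Windows were searched on both strands for TAAT, the core bound by Hox homeodomains, for TGATNNAT, bound by Hox and Pbx proteins together, for GGGCGG, the GC box, and for the p53 half-site. TAAT can overlap TGATNNAT, while the other motifs were counted separately. Capitals in the following sequences mark p53 half-sites and TGATNNAT, read on either strand.
Bak1, a pore-forming effector, chr17:27028578-27028877, minus strand: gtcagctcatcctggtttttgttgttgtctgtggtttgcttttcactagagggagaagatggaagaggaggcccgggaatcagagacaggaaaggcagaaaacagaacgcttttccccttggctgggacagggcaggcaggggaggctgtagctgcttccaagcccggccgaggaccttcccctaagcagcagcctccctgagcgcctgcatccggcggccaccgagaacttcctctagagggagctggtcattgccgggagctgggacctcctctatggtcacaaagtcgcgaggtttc
Cdkn1a, a cell cycle inhibitor and p53 target, chr17:29090729-29091028, plus strand: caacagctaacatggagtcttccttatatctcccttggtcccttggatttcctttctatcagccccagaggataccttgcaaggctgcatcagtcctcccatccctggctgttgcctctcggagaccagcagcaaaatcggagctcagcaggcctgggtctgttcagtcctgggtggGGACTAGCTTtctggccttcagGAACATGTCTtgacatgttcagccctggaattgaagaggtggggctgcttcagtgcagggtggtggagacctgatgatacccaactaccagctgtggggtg
Mdm2, the ubiquitin ligase of p53, chr10:117710709-117711008, minus strand: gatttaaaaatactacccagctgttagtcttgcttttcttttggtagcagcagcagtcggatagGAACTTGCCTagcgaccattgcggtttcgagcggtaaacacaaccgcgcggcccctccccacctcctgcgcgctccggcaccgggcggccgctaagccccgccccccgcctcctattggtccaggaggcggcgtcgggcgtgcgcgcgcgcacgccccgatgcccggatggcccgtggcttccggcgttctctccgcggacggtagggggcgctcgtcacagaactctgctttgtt
Bid, a BH3-only gene, chr6:120916775-120917074, minus strand: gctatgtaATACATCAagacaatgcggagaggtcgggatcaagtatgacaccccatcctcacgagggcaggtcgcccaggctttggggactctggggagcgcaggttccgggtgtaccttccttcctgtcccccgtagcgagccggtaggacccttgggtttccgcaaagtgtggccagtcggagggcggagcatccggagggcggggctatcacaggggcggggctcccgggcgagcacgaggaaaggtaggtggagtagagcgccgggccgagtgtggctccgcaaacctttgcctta

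The Bak1 window held none of the 4 motifs. The Cdkn1a window printed held 2 p53 half-sites and the Mdm2 window 1, while a second Cdkn1a window, chr17:29093519-29093818, held none and 2 GC boxes. The Bid window held 1 match to TGATNNAT, on the strand opposite to the one printed. A p53 half-site was present in 6 of the 44 member windows, those of Bax, Birc2, Bmf, Cdkn1a, Mdm2 and Trp53, against 8.36% of the 32851 windows in the table. TGATNNAT was present in 2 of 44, those of Bid and Trp73, against 8.85% of all windows. TAAT was present in 14 of 44 member windows, against 58% of all, and GGGCGG in 29 of 44, against 35.7% of all. The member windows were also richer in G and C, with a median of 62.2% against 52.7%. A match describes the letters of the window and is not a site that was shown to be bound.

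The arrays detected 19401 to 20011 probes in the samples labelled mutant and 19307 to 20307 in the wild type, and between 48 and 53 of the 88 member probes. The median raw signal was 103.9 to 109.8 in the mutant arrays and 97.7 to 102.5 in the wild-type arrays (two-sided exact permutation p = 0.1, the smallest that 3 against 3 arrays allow). Hoxa5, whose single probe read 13.15, 13.81 and 13.67 in the mutant arrays and 14.03, 13.99 and 13.94 in the wild-type arrays, was detected in all 6. Hoxc5 read 6.58, 7.65 and 7.71 in the mutant arrays, against 6.47, 6.59 and 6.68 in the wild-type arrays, a difference of 0.73. Hoxb5, which was not targeted, differed by −0.29. The labels do not place these probes inside or outside the deleted regions, so they do not check the genotypes, and "mutant" means labelled mutant throughout. Mutant replicate 1 stood apart from the other arrays, with a mean correlation of 0.952 with the other 5 over the kept probes, against 0.976 to 0.980 for each other array. Its summed intensity of the 9 listed motor neuron markers, all kept, was 1440, against 5220 and 2450 in mutant replicates 2 and 3 and 3800 to 4340 in wild type. This array was the lowest for 5 of the 9, so the lower sum was not shared by all of them. Mutant replicate 1 had a sum of 73100 over the 8 blood markers with a probe, of 10 listed and 6 kept. That sum was 2290 and 3130 in the other mutant arrays and 1360 to 10700 in wild type. The sums of the endothelial (8 with a probe, 3 kept), mesenchymal (9 and 4), progenitor (7 and 6) and dividing-cell (5 and 3) markers were also highest in this array. These lists held 8, 9, 7 and 7 markers. Each kept marker of these lists was highest there too, except 1 of the 6 progenitor ones, Sox2. The 11 interneuron markers with a probe, of 12 listed and all kept, summed to 10500 there, against 19800 to 24400 over the other 5 arrays. The 7 macrophage markers with a probe, of 8 listed and 1 kept, summed to 507 there, against 170 to 202 on the other 5 arrays. The 4 sensory and neural crest markers with a probe, of 5 listed and 3 kept, summed to 943, against 803 to 962. On every array, wild type included, the interneuron sum was above the motor neuron sum. Sums over different probes do not measure shares of cells, but the values below cannot be read as those of motor neurons alone. Of the defining markers, Tie1 of endothelium, Ptprc of macrophages, Pax6 of progenitors, Ccna2 and Bub1 of dividing cells and Prdm12 of sensory neurons were detected on no array. The part of these other cells in the values below was not tested, and in such bulk samples fewer cells of a type and less RNA per cell cannot be told apart. The difference of each tested member is therefore also given without mutant replicate 1.

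None of the 23 tested members passed the test between mutant and wild type, and none of the 13638 features tested did so either (0% called at an adjusted p under 0.05, limma with Benjamini-Hochberg adjustment over all features). The adjusted p was 0.997 for each of the 23. Of the members, Bak1 alone had an unadjusted p under 0.05 in limma, against 1.83% of all features, and it passed the detection filter only through its mutant arrays. The 3 mutant values did not overlap the 3 wild-type values in 2 members, against 5.51% of all features. These were Bak1, with the mutant arrays above (2.66% of all features), and Bcl2l2, with the mutant arrays below (2.84% of all features). The mean was higher in mutant for 9 members and lower for 14, while 52.6% of all features were lower. The median absolute difference was 0.12 over the members and 0.14 over all features, and the median signed difference was −0.03 and −0.01. The 95% interval of the difference lay within a 2-fold change for 21 of the 23 members, against 83.9% of all features, and within a 1.5-fold change for 12 of 23, against 41.1%. Differences of more than 2-fold remain possible for Bcl2l1, whose interval ran from −1.15 to 0.57. The same holds for Bak1, whose interval ran from 0.28 to 1.01 against a wild-type level not above background.

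**Figure D1:**
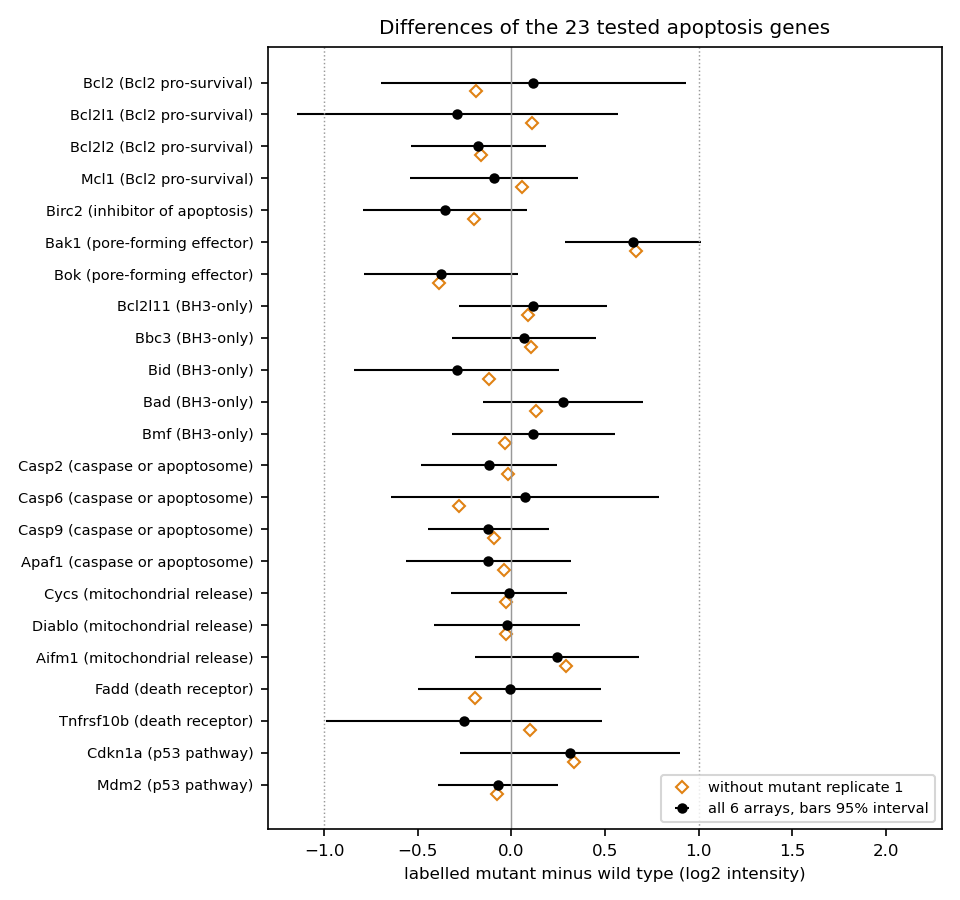
Difference between mutant and wild type (x axis, log2 intensity) for the 23 tested apoptosis genes, listed by role. Black points are the difference over all 6 arrays with its 95% interval, orange diamonds the difference without mutant replicate 1, and dotted lines mark a 2-fold change; the interval of Bak1, which was not detected in wild type, lies above 0, and those of the other 22 genes include 0.

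Bak1, which together with Bax forms the pores of the outer mitochondrial membrane, was the member with the smallest p. Its single probe read 5.28, 5.15 and 5.50 in the mutant arrays, against 4.73, 4.69 and 4.56 in the wild-type arrays. Every mutant array was thus above every wild-type array, with means of 5.31 ± 0.18 in mutant and 4.66 ± 0.09 in wild type (SD, n = 3 each). The probe was detected on all 3 mutant arrays and on none of the wild-type arrays, where its raw signals of 103.2, 97.2 and 97.5 were not well above background, against 118.7, 117.7 and 133 in the mutant arrays. The wild-type level is therefore only a bound. At the offset of 16 used here, the mutant mean was 1.33-fold above the dimmest level detected on the wild-type arrays. This ratio holds for that background correction alone and is no lower limit. Bak1 did not pass the test (adjusted p = 0.997 in limma), and it was tested only because its mutant arrays reached the detection filter. The fitted difference of 0.65 is no measure of size, since it moved with the treatment of background: it was 0.22 without background correction, 0.22 with the authors' normalized values and 0.32 with an offset of 50. It was 0.67 without mutant replicate 1.

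Bok, a Bcl2 relative that can form pores without Bax or Bak1, had the opposite sign. Its brighter probe read 10.48, 10.33 and 10.56 in the mutant arrays, against 10.91, 10.56 and 11.03 in the wild-type arrays. The ranges met at 10.56, and the difference of −0.38 (95% interval −0.79 to 0.04, unadjusted p = 0.069 in limma) did not pass. It was −0.39 without mutant replicate 1. The second Bok probe, at 6.33, 6.29 and 6.23 in the mutant arrays against 6.32, 6.46 and 6.20 in the wild-type arrays, differed by −0.04, so that the probes disagree in size.

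**Figure D2:**
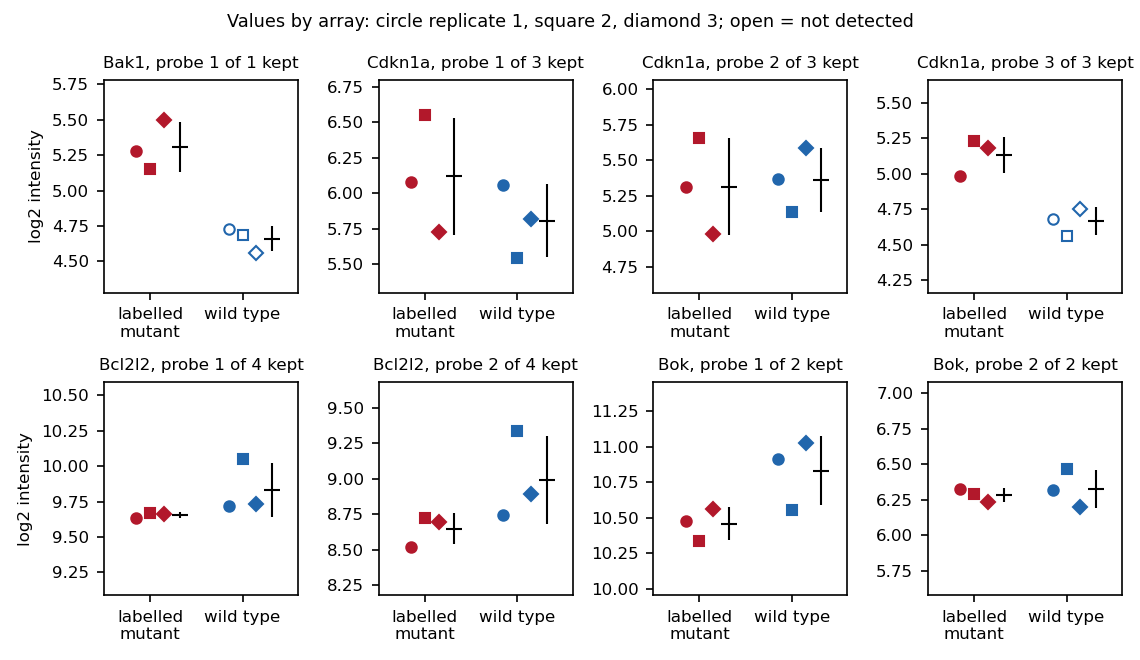
Log2 intensity (y axis) of 8 probes of Bak1, Cdkn1a, Bcl2l2 and Bok in each mutant (red) and wild-type (blue) array; circles, squares and diamonds are replicates 1, 2 and 3, open symbols were not detected, and bars are the mean ± SD (n = 3 each). Bak1 and the third Cdkn1a probe were detected on the mutant arrays alone, and the first 2 Bcl2l2 probes had every mutant array below every wild-type array.

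The pro-survival Bcl2 proteins bind and hold back the pore formers. Bcl2l2, which encodes Bcl-w and is strongly expressed in neurons, read 9.63, 9.67 and 9.66 in the mutant arrays, against 9.72, 10.05 and 9.73 in the wild-type arrays. Every mutant array was below every wild-type array, by a small margin, and the difference was −0.18 (95% interval −0.54 to 0.18, adjusted p = 0.997 in limma). It was −0.16 without mutant replicate 1. The 4 Bcl2l2 probes disagreed in sign: the second also had every mutant array below wild type, at 8.52, 8.73 and 8.69 against 8.74, 9.34 and 8.89, with a difference of −0.34, while the others differed by 0.17 and −0.03. Mcl1, a short-lived pro-survival protein needed for developing neurons, differed by −0.09, and by 0.05 without mutant replicate 1.

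Bcl2l1, which encodes Bcl-xL, the chief survival protein of newly born neurons, had its extreme values in 1 array. Its brightest probe read 6.73, 8.02 and 7.84 in the mutant arrays, against 7.72, 8.19 and 7.56 in the wild-type arrays, a difference of −0.29. Mutant replicate 1 was the lowest array for all 3 kept probes, at −1.14, −1.17 and −1.19 relative to the mean of the other 5 arrays. The groups did not overlap for the second probe, at 6.05, 7.15 and 6.93 in the mutant arrays against 7.17, 7.65 and 7.22 in the wild-type arrays. Without mutant replicate 1 the difference of the brightest probe turned to 0.11, while the second was at −0.30, with both other mutant arrays still below every wild-type array, and the third at −0.08. In that same array the motor neuron markers summed to 1440 and the blood markers to 73100, and the part of either in the Bcl2l1 values was not tested.

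Bcl2 itself lay the other way in that array. Its brightest probe read 7.27, 6.15 and 6.58 in the mutant arrays, against 6.03, 6.79 and 6.83 in the wild-type arrays, a difference of 0.12 that became −0.19 without mutant replicate 1. All 4 kept probes of its 9 were highest in mutant replicate 1, by 0.80, 0.49, 0.50 and 0.89 over the mean of the other 5 arrays. Among the inhibitors of apoptosis, Birc2, a ubiquitin ligase of death receptor complexes, read 9.74, 10.15 and 10.23 in the mutant arrays, against 10.22, 10.50 and 10.46 in the wild-type arrays. Mutant replicate 3 lay above wild-type replicate 1, and the difference was −0.35 (95% interval −0.79 to 0.09), or −0.20 without mutant replicate 1. Its 4 kept probes had both signs. Xiap, a direct inhibitor of caspases, was detected with none of its 4 probes on any array, and Birc3 with none of its 1.

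The BH3-only proteins trigger apoptosis by engaging the other Bcl2 proteins. Of the 8 listed, 5 were tested, and 4 had a higher mean in mutant and 1 a lower one, with a median difference of 0.12, or 0.09 without mutant replicate 1. Bad, which is held inactive by survival signalling, read 9.54, 9.13 and 9.08 in the mutant arrays, against 9.01, 8.82 and 9.09 in the wild-type arrays. The groups overlapped, and the difference of 0.28 (95% interval −0.15 to 0.70) was 0.13 without mutant replicate 1. Bid, which links death receptors to the mitochondria, read 8.23, 8.72 and 8.77 in the mutant arrays, against 8.53, 9.17 and 8.90 in the wild-type arrays. Its difference of −0.29 (95% interval −0.84 to 0.25) was −0.12 without mutant replicate 1. Bcl2l11, which encodes Bim, a BH3-only protein linked to the loss of trophic support in neurons, differed by 0.12, or by 0.09 without mutant replicate 1. Bbc3, the p53 target that encodes Puma, differed by 0.07, or by 0.10 without that array. Bmf, which is released from the cytoskeleton when cells detach, differed by 0.12 and turned to −0.03 without it. Hrk, another gene of neuronal death, was detected on 1 array, mutant replicate 2, at 5.27, and Bik on 1 array. Pmaip1, a p53 target, was detected with none of its 3 probes on any array.

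Caspases cut cell proteins, the initiators first and the executioners after them. The initiator Casp2 read 11.66, 11.95 and 11.99 in the mutant arrays, against 11.99, 12.07 and 11.91 in the wild-type arrays, and differed by −0.12, or by −0.02 without mutant replicate 1. Casp9, the initiator of the mitochondrial pathway, read 10.12, 10.25 and 10.17 in the mutant arrays, against 10.22, 10.40 and 10.29 in the wild-type arrays. The groups overlapped, with mutant replicate 2 above wild-type replicate 1, and the difference was −0.12 (95% interval −0.45 to 0.20), or −0.09 without mutant replicate 1. Apaf1, the scaffold that activates Casp9, also differed by −0.12, or by −0.04 without that array. Casp6, an executioner caspase that takes part in axon degeneration, read 7.74, 6.73 and 6.65 in the mutant arrays, against 6.99, 6.83 and 7.09 in the wild-type arrays. Its difference of 0.07 became −0.28 without mutant replicate 1. Casp8, the initiator of the death receptor pathway, was not tested, and both its probes were detected and highest in that array, at 5.76 and 5.38 against 4.35 to 4.96 on the other 5 arrays.

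**Figure D3:**
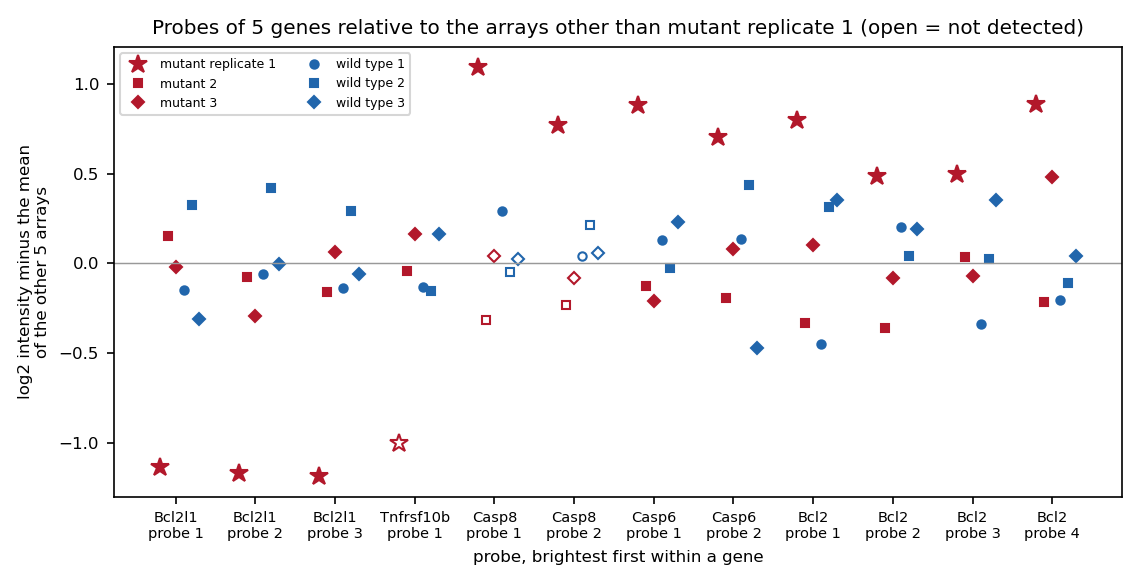
Log2 intensity of 12 probes of Bcl2l1, Tnfrsf10b, Casp8, Casp6 and Bcl2 (x axis, brightest first within a gene) minus the mean of the arrays other than mutant replicate 1 (y axis). Stars are mutant replicate 1, other red symbols mutant replicates 2 and 3, blue symbols the 3 wild-type arrays, and open symbols not detected; the star is the lowest point for Bcl2l1 and Tnfrsf10b and the highest for the other 3 genes, which were chosen after their values were seen.

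Factors released from mitochondria act downstream of the pores. Cycs, cytochrome c, read 11.69, 11.65 and 11.61 in the mutant arrays, against 11.68, 11.70 and 11.60 in the wild-type arrays, and differed by −0.01 (95% interval −0.32 to 0.30), or by −0.03 without mutant replicate 1. The groups of this brightest Cycs probe spanned nearly the same range, while its other kept probes differed by −0.10 and −0.56, so that the probes disagree in size. Diablo, which frees caspases from their inhibitors, read 10.57, 10.51 and 10.60 in the mutant arrays, against 10.85, 10.41 and 10.49 in the wild-type arrays, and differed by −0.03 with and without that array. Aifm1, a mitochondrial flavoprotein of caspase-independent death, read 7.94, 7.96 and 8.19 in the mutant arrays, against 7.96, 7.48 and 7.92 in the wild-type arrays. Its difference of 0.24 (95% interval −0.19 to 0.68) was 0.29 without mutant replicate 1. In the death receptor pathway, the adaptor Fadd read 7.43, 7.01 and 6.75 in the mutant arrays, against 7.08, 6.94 and 7.20 in the wild-type arrays, and differed by −0.01, or by −0.20 without mutant replicate 1. Tnfrsf10b, a receptor for the ligand TRAIL, read 4.73, 5.69 and 5.89 in the mutant arrays, against 5.60, 5.57 and 5.89 in the wild-type arrays. It was undetected in mutant replicate 1, and its difference of −0.25 (95% interval −0.99 to 0.48) was 0.10 without that array. Fas had 4 probes and 1 detection over all arrays.

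Cdkn1a encodes p21, which stops the cell cycle and is the classic target of p53, and Mdm2 both is switched on by p53 and degrades it. The brightest Cdkn1a probe read 6.08, 6.55 and 5.73 in the mutant arrays, against 6.06, 5.54 and 5.82 in the wild-type arrays, and the fitted difference was 0.31, with a 95% interval of −0.28 to 0.90, or 0.33 without mutant replicate 1. The third Cdkn1a probe was detected on all 3 mutant arrays and on none of the wild-type arrays, at 4.98, 5.23 and 5.18 against 4.68, 4.56 and 4.75. All mutant arrays were above all wild-type arrays there. At the offset of 16, the mutant mean was 1.18-fold above the dimmest level detected on the wild-type arrays, which is no lower limit. The probe was kept only through its mutant arrays and did not pass the test (adjusted p = 0.998 in limma over every kept probe). The second Cdkn1a probe differed by −0.05, so that the 3 probes disagree. Mdm2 read 11.16, 11.13 and 11.14 in the mutant arrays, against 11.18, 11.14 and 11.32 in the wild-type arrays, and differed by −0.07 (95% interval −0.39 to 0.25), or by −0.08 without mutant replicate 1. Trp73, a relative of p53, was detected on no array.

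Among all 51 kept member probes, the groups did not overlap for 5, against 5.93% of all kept probes. The mutant arrays were above for 2 of them (2.63% of all kept probes), which are the Bak1 probe and the third Cdkn1a probe, kept through the mutant arrays alone, and below for 3 (3.29%). Of the 16 members with more than 1 kept probe, the probes of 8 shared 1 sign and those of 8 had both. Mutant replicate 1 was the highest or lowest of the 6 arrays for 14 of the 23 members (60.9%), against 61.4% of all features, and it was highest for 5 of them (25.7% of all features) and lowest for 9 (35.7%). Mutant replicates 2 and 3 were the highest or lowest array for 25.3% and 27.9% of all features, and wild-type replicates 1, 2 and 3 for 22%, 39.7% and 23.7%. Without mutant replicate 1, the groups did not overlap for 4 of the 23 members, Bak1, Bcl2l2, Casp6 and Mdm2, against 13.6% of all features. Bak1 alone then had an unadjusted p under 0.05, against 2.47% of all features, and 14 of the 23 members were lower in mutant, against 49%.

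**Figure D4:**
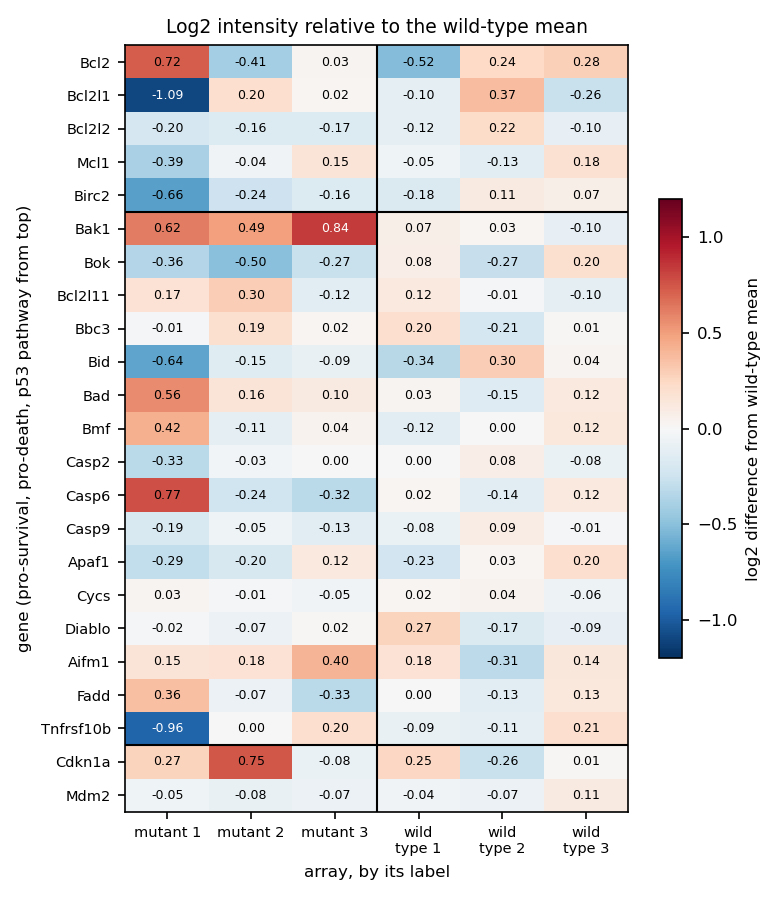
Log2 intensity of the 23 tested members on each array minus the mean of the 3 wild-type arrays (colour and number), with mutant arrays to the left of wild-type arrays and pro-survival, pro-death and p53 pathway members from top to bottom. The Bak1 row is above 0 on all 3 mutant arrays, and the largest deviations, of Bcl2l1 and Tnfrsf10b, lie in mutant replicate 1.

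Pro-death and pro-survival members were then compared as groups. Of the 5 pro-survival members, Bcl2, Bcl2l1, Bcl2l2, Mcl1 and Birc2, 1 had a higher mean in mutant and 4 a lower one, with a median difference of −0.18. The count was 2 higher and 3 lower without mutant replicate 1, with a median of −0.16. Of the 16 pro-death members, 7 had a higher mean and 9 a lower one, with a median of −0.01, and −0.01 over all features. Their count was 6 higher and 10 lower without that array, with a median of −0.03. The 7 tested pro-death members of the Bcl2 family, the effectors and BH3-only genes, had 5 higher and 2 lower, with a median of 0.12, or 4 higher and 3 lower with a median of 0.09 without mutant replicate 1. The pro-death median minus the pro-survival median was 0.17. Taken on each array, this measure had an SD of 0.20 between the arrays of 1 group. The SD describes single arrays and 0.17 a difference between groups of 3, so setting them side by side is no test. Relative to the wild-type mean, the pro-survival median was −0.39, −0.16 and 0.02 on the mutant arrays and −0.12, 0.22 and 0.07 on the wild-type arrays, so the groups overlapped. The pro-death median was 0.01, −0.04 and 0.01 on the mutant arrays, against 0.02, −0.06 and 0.08 on the wild-type arrays. The mutant and wild-type medians overlapped for both sides.

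**Figure D5:**
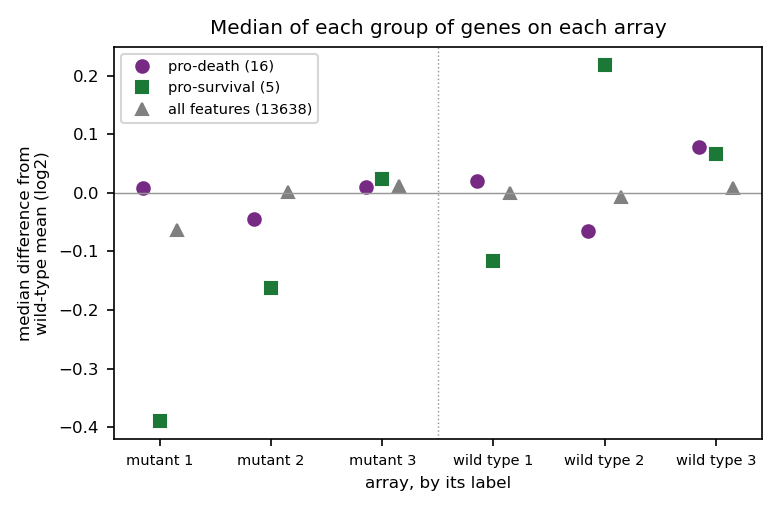
Median difference from the wild-type mean (y axis, log2) of the 16 pro-death members, the 5 pro-survival members and all 13638 features on each array (x axis). The pro-death medians stay between −0.06 and 0.08, while the pro-survival medians run from −0.39 in mutant replicate 1 to 0.22 in wild-type replicate 2.

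Further genes of these pathways, from lists of 59 other apoptosis genes and 30 other p53 pathway genes, gave the setting of the members. Of the first list, 34 were tested, 0 passed the test, 17 were higher and 17 lower in mutant, and the median difference was 0.01. The largest of these by p were Jun, a transcription factor activated in neurons deprived of trophic factor, at 9.94, 9.50 and 9.48 in the mutant arrays against 9.52, 8.68 and 9.49 in the wild-type arrays (difference 0.41), and Bcap31, of the endoplasmic reticulum (0.33), with Dffa, the inhibitor of the apoptotic nuclease (−0.29), and Tradd, an adaptor of the TNF receptor (−0.19), on the lower side. Of the second list, 23 were tested, 0 passed, and 7 were higher and 16 lower, with a median of −0.06, or −0.03 without mutant replicate 1. Ccng1, a p53 target, was the 1 gene whose groups did not overlap, at 9.22, 9.20 and 9.25 in the mutant arrays, against 9.02, 9.11 and 9.01 in the wild-type arrays (difference 0.18, adjusted p = 0.997 in limma), and 1 of 23 stands against 2.66% of all features with the mutant arrays above. Sesn1 (0.28), Sesn2 (−0.32) and Gadd45a (−0.30), stress genes that p53 can switch on, lay on either side.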

How the data were processed

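Per the file headers, the deposited signal table holds linear intensities for each probe and array, not normalized, and the authors' second table gives normalized intensities. Each deposited detection p-value compares a probe with background. Quantile normalization of the first table matched the authors' values within 1.48%. Scanner software, slides and genome build are not stated in the labels or headers, and 0 value columns matched no sample.

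Intensities were background-corrected with limma 3.58.1 in R 4.3.3 (normexp using the detection p-values, offset 16), taken to log2 and quantile-normalized over 6 arrays. Probes detected (p under 0.05) on at least 3 arrays were kept and the brightest kept probe stood for a gene. Fits used lmFit and eBayes on genotype, with Benjamini-Hochberg adjustment over 13638 features. Symbols came from the platform annotation (34885 probes with 1 symbol, 18 with several, 10378 unnamed here), and 34807 matched a RefSeq table of GRCm38.p6 by gene identifier. The fit was also run on simulated arrays with known changes. These were drawn with independent noise and no outlying array, so they do not test the effect of mutant replicate 1.

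Signal over background and the 3 arrays per group limit precision. Same-numbered mutant and wild-type samples had correlated deviations of 0.320, 0.013 and 0.104, which does not show pairing, so no replicate block was used in the main test. Members, lists and roles were chosen with earlier results of these data known. Values on every array were given for members with an unadjusted p under 0.05, with groups that do not overlap, or detected in 1 group alone, and for the 2 smallest p in each role. From each list of other pathway genes, the 2 smallest p in each direction were named. Other genes named, among them Bcl2, Casp6 and Casp8, were chosen after their values were seen. Alternatives changed the background correction, offset, filter, probe choice, deposited values, array weights and replicate block, and left out each array.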

Additional observations from a re-analysis of the deposited data

How the results depend on the processing

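No member passed an adjusted p under 0.05 in limma under any of the 15 alternatives run, of which 9 changed the processing and the others left out 1 array each, and the lowest adjusted p of a named member was 0.83. The number of members with an unadjusted p under 0.05 was 1 in the main test, against 250 of all 13638 features. It was 2 without background correction, with an offset of 50, with the authors' normalized values, without a filter, with every kept probe, with array weights and with a replicate block, and 0 where a probe had to be detected on all 6 arrays, since Bak1 then left the test. Bok was the second member in each of these except every kept probe, where it was Cdkn1a. Leaving out 1 array gave 1 to 2, against 151 to 448 of all 13638 features. Over the same features the count was 160 without background correction, 176 with an offset of 50 and 162 with the authors' values. It was 581 with array weights and 379 with a replicate block. It was 829 of 29453 without a filter, 375 of 19735 with every kept probe and 161 of 11350 with detection on all 6 arrays. The number of members whose groups do not overlap was 2, against 1 with detection on all 6 arrays, 5 probes with every kept probe and 3 to 7 on leaving out 1 array. The share of all features was 5.51%, 5.13% and 5.93% in the first 3 of these, and 9.91% to 18.9% on leaving out 1 array, where fewer arrays are compared. Over all features, leaving out 1 array gave 0 to 1 past the adjusted threshold, the 1 being Cops8 without mutant replicate 3. The pro-death median was −0.057 to 0.048 on leaving out 1 array, against −0.01, the pro-survival median −0.23 to −0.11, and their difference 0.05 to 0.27. The sign turned in 7 of 223 values of the 15 named members: Bcl2l1 was at 0.13 with array weights and ran from −0.53 to 0.11 on leaving out 1 array, Tnfrsf10b from −0.48 to 0.10, Fadd from −0.20 to 0.15 and Diablo from −0.11 to 0.11. Bcl2l1 and Tnfrsf10b turned without mutant replicate 1, Diablo without wild-type replicate 1 (0.11), and Fadd, at −0.01 in the main test, without mutant replicate 2 (0.02), mutant replicate 3 (0.15) or wild-type replicate 3 (0.05). The cause was not tested. The fitted difference of Bak1, 0.65, was 0.22 without background correction or with the authors' values and 0.32 with an offset of 50. Mutant replicate 3 correlated best with wild-type replicate 2, and the replicate block changed no call, with 379 features at an unadjusted p under 0.05 against 250. Median scaling, chosen after seeing the data, left Bak1 and Bad with groups that do not overlap. Probes near background, among them those of Bak1 and Tnfrsf10b, limit what can be seen.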

Other observations

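The 3 genes on either side of Bak1, Bok, Cdkn1a and Bcl2l2 were looked up after the values of the members were seen. Bok lies on chromosome 1 between Stk25 and Thap4 in the RefSeq order of genes. Thap4, a gene of the THAP zinc finger family, read 8.64, 8.24 and 8.42 in the mutant arrays, against 5.92, 6.00 and 6.52 in the wild-type arrays, and its difference of 2.29 had the smallest p of all 13638 features (adjusted p = 0.177 in limma). Stk25, a kinase gene, read 8.15, 8.43 and 7.67 in the mutant arrays, against 7.43, 7.16 and 7.38 in the wild-type arrays, with a difference of 0.76. Both had every mutant array above every wild-type array, while Bok between them differed by −0.38 and Atg4b, the gene after Thap4, by −0.02. Beside Bcl2l2 (−0.18) on chromosome 14, Pabpn1 (−0.19) and Slc22a17 (−0.16) had every mutant array below every wild-type array and Efs (0.16) had every mutant array above. The tested neighbours of Cdkn1a differed by −0.18 to 0.09 and those of Bak1 by −0.04 and 0.26, with overlapping groups. The other tested neighbours of Bok and Bcl2l2 also had overlapping groups. Of all features, 2.66% had every mutant array above every wild-type array and 2.84% had every mutant array below. None of the neighbours passed the test.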
